A study of Mus musculus with 6 samples.

Results

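The 9 genes described here make, bind, sense and remove retinoic acid, the active form of vitamin A. They were taken by symbol from the deposited gene lists: the retinoic acid binding proteins Crabp1 and Crabp2, the retinal dehydrogenases Aldh1a1, Aldh1a2 and Aldh1a3, the retinal reductase Dhrs3, the retinoic acid hydroxylase Cyp26b1, and the receptors Rarb and Rarg. All 9 were among the 24982 genes listed. RNA-seq had been performed on 2 mouse keratinocyte lines from the skin of newborn C57BL/6 pups, with 3 libraries per line. The KSFM-Ca2+ cells were derived and kept in a serum-free medium low in calcium, and the DKSFM cells were the survivors of KSFM-Ca2+ cells moved to a defined serum-free medium with more calcium. No treatment is named for either line. Medium, calcium and selection of surviving cells therefore cannot be told apart in any difference between the lines. The number of pups behind each line is not given in the sources used here. Nothing states that the replicates were separate cultures, so p-values measure only the spread between these libraries, which may be technical.

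Retinol enters a cell, is oxidised reversibly to retinal by retinol dehydrogenases, and is then oxidised irreversibly to retinoic acid by the ALDH1A enzymes. Retinoic acid binds heterodimers of RAR and RXR receptors on direct repeats of a short half-site in DNA, and CYP26 hydroxylases remove it. Epidermis depends on this balance, and keratinocytes given extra retinoid alter their keratins and their cornification genes.

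The deposited values are the mean number of reads covering each base of a gene, written to 1 decimal and not scaled to library size. Total coverage summed over genes ranged from 1057750.5 to 1601676.1 per library, and 13748 to 14140 genes were above 0. Coverage is counted per base, so levels of different genes are set side by side here. Which bases were counted for each gene is not given in the sources used here, so comparisons between genes are approximate. For comparisons between libraries coverage was normalized by a trimmed mean of M values and is given as mean ± SD (n = 3 libraries per line). A gene was tested with limma, on log2(normalized coverage + 0.1), if at least 3 libraries reached 0.5, and it was called if its p adjusted over all 12409 tested genes was under 0.01. Log2 fold changes are DKSFM over KSFM-Ca2+, and on this scale weakly covered genes show less than their full change.

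Dhrs3, Cyp26b1, Rarg and Crabp2 were higher in the DKSFM cells, and no member was called lower. Of the 9 members, 6 passed the filter, 4 of these were called higher and 2, Aldh1a1 and Rarb, were not called. In the same limma fit 35.5% of all tested genes were called higher and 37.1% were called lower. With a fold change of at least 2 added to the rule, 3 members were called higher, against 13.2% of all tested genes higher and 10.5% lower. At an unadjusted p under 0.05 limma also gave 4 members higher and 0 lower, against 40.6% of all tested genes higher and 41.3% lower. With no filter, Aldh1a3 was called as well. The median log2 fold change was 1.37 over the 6 tested members and -0.0012 over all tested genes. The members were chosen with earlier results of these data known, so these counts and medians cannot show that retinoid genes differ more than others. Crabp2 passed the filter through the DKSFM libraries alone and so had to differ, as did 6.48% of all tested genes that reached 0.5 in libraries of 1 line only. In bulk RNA, fewer cells that express a gene and less of its RNA per cell cannot be told apart.

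**Figure D1:**
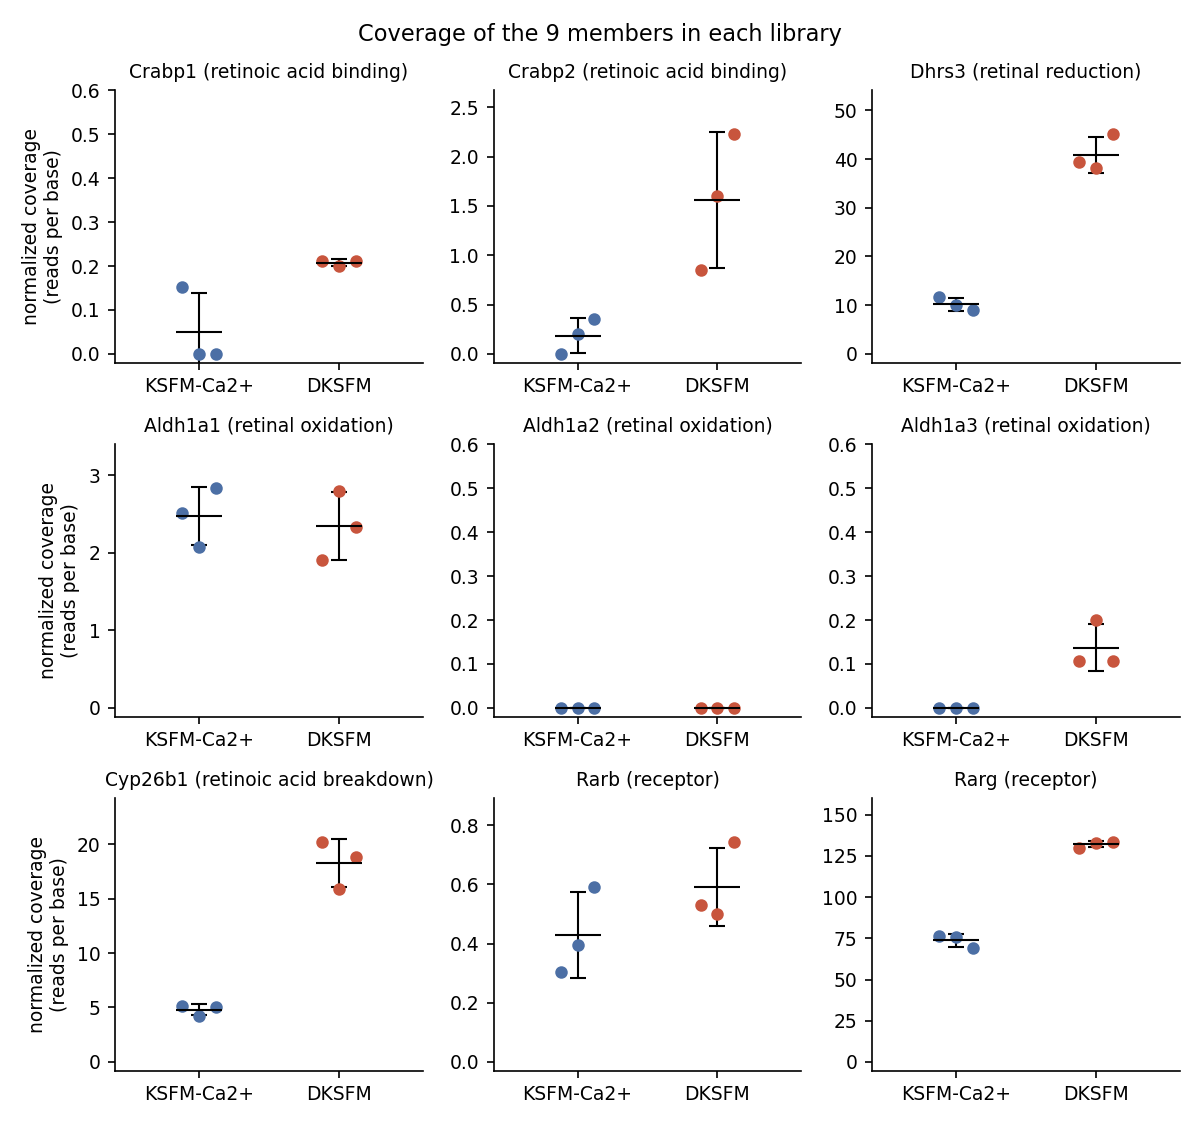
Normalized coverage (reads per base, linear axes) of the 9 members, with 1 point per library and bars at the mean ± SD of 3 libraries per line. The libraries of the 2 lines do not overlap for Dhrs3, Cyp26b1, Rarg and Crabp2, overlap for Aldh1a1 and Rarb, and lie within a few rounding steps of 0 for Crabp1, Aldh1a2 and Aldh1a3. Close to 0, Crabp1 and Aldh1a3 also do not overlap on the normalized scale. The share of all tested genes without overlap was not computed, and 35.5% of them were called higher and 37.1% lower.

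The order of the members was alike at the top in both lines. Rarg came first, followed by Dhrs3, Cyp26b1 and Aldh1a1, and for Rarg, Dhrs3 and Cyp26b1 every library lay above every library of the next gene in both lines. In the KSFM-Ca2+ cells Aldh1a1 was also above all libraries of Rarb, while Rarb and Crabp2 overlapped. In the DKSFM cells Aldh1a1 and Crabp2 overlapped, and Crabp2 lay above Rarb in all libraries.

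Dhrs3 encodes a short-chain reductase that turns retinal back into retinol. It is on the plus strand of chromosome 4 (GRCm38, GENCODE M21, chr4:144892827-144928209). Its listed coverage was 15.3, 10.1 and 7.6 in KSFM-Ca2+ replicates 1 to 3 and 37.1, 38.1 and 42.5 in DKSFM replicates 1 to 3. Every DKSFM library was above every KSFM-Ca2+ library. Normalized coverage was 40.8 ± 3.71 in the DKSFM cells and 10.2 ± 1.36 in the KSFM-Ca2+ cells. By limma the log2 fold change was 1.99 (95% confidence interval 1.76 to 2.23) with an adjusted p of 5.04e-07.

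Cyp26b1 encodes the hydroxylase of the CYP26 family that clears retinoic acid in skin and other tissues. It is on the minus strand of chromosome 6 (chr6:84571414-84593908). KSFM-Ca2+ replicates 1 to 3 were listed at 6.7, 4.3 and 4.3 and DKSFM replicates 1 to 3 at 19.0, 15.9 and 17.8. The lines did not overlap here either. The normalized means were 4.81 ± 0.484 in the KSFM-Ca2+ cells and 18.3 ± 2.20 in the DKSFM cells, a 3.81-fold difference, and limma gave a log2 fold change of 1.90 (1.65 to 2.16) with an adjusted p of 9.89e-07. Within a library the ratio of Cyp26b1 to Dhrs3 coverage, chosen after the values were seen, was 0.476 ± 0.0776 in the KSFM-Ca2+ cells and 0.449 ± 0.0543 in the DKSFM cells, so these genes differed between the lines by a like factor. The other CYP26 genes were at or near 0: Cyp26a1 was listed at 0 in all 6 libraries, and Cyp26c1 at 0.1 in KSFM-Ca2+ replicate 1 and at 0 in the others.

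Because Dhrs3 and Cyp26b1 moved together, the sequence before their start sites is shown (RefSeq, GRCm38.p6, 5′ to 3′ on the strand of each gene, bases in annotated exons left out). Both stretches, and the promoter windows of all genes, were searched on both strands for the receptor half-site AGGTCA in its common form, for the variant GGGTCA that differs at the start, for the variant AGTTCA that differs inside, and for GGTTCA, which joins both changes. Capitals would mark a half-site, and neither stretch held one. Dhrs3 has other RefSeq start sites, whose windows are not shown. A search of these stretches cannot tell whether a half-site lies elsewhere. Of all 32851 promoter windows, 38.6% held one in the first 250 bases, the length shown for Dhrs3, and 26% in the first 152 bases, the length shown for Cyp26b1. The Dhrs3 stretch is chr4:144892577-144892826 on the plus strand and the Cyp26b1 stretch is chr6:84593909-84594060 on the minus strand.
Dhrs3: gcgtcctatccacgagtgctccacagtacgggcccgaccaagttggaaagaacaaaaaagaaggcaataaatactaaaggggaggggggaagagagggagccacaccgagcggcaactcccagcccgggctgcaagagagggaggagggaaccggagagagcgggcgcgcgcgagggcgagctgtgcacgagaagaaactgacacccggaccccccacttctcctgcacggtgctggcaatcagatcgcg
Cyp26b1: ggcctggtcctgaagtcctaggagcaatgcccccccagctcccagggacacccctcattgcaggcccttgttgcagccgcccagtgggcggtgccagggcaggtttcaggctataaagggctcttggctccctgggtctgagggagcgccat

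Rarg, the retinoic acid receptor that predominates in epidermis, had the highest coverage of the 9 genes. It is on the minus strand of chromosome 15 (chr15:102234938-102257517). The KSFM-Ca2+ replicates were listed at 99.9, 76.8 and 58.8 and the DKSFM replicates at 122.4, 133.2 and 125.7. The spread among the KSFM-Ca2+ libraries followed their totals, and after normalization they lay between 69.4 and 76.1. The DKSFM mean was 132.1 ± 1.87 and the KSFM-Ca2+ mean 73.8 ± 3.85, a 1.79-fold difference, below the 2-fold rule. By limma the log2 fold change was 0.84 (0.74 to 0.94), with an adjusted p of 4.25e-07.

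Rarb encodes the receptor whose own promoter is a classical target of retinoic acid. It is on the minus strand of chromosome 14 (chr14:16430839-16819156). In KSFM-Ca2+ replicates it was listed at 0.4, 0.4 and 0.5, against 0.5, 0.5 and 0.7 in DKSFM replicates, and the lines overlapped. The limma log2 fold change was 0.40 (-0.24 to 1.04) with an adjusted p of 0.211, so no difference in either direction was detected among these libraries. Of the exon bases of Rarb, 38.4% overlap exons of Gm48162 and Top2b on the opposite strand. Whether coverage was counted by strand is not given in the sources used here, so the low values of Rarb, and its share below, are uncertain.

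Of the 9 members, 7 had a promoter window in the RefSeq table, and Rarb alone held a direct repeat of a pair of half-sites spaced by 1, 2 or 5 bases. Among the 62 other retinoid genes listed below, 44 had a window and 2 held such a repeat, Cyp26a1 and Bco1. Of all 32851 windows 0.588% held one, and 0.0974% held one spaced by 5 bases. Counted by gene, 0.688% of all 27025 genes with a window held a repeat of any of these spacings. The repeats of Rarb and Cyp26a1, the genes of receptor feedback and retinoic acid clearance, are both spaced by 5 bases and are shown with 6 bases on either side, along the strand of the repeat, with capitals marking it. The Rarb stretch is on the minus strand, that of the gene, at chr14:16575507-16575535, with the repeat at chr14:16575513-16575529, and the Cyp26a1 stretch is on the minus strand, opposite the gene, at chr19:37697770-37697798, with the repeat at chr19:37697776-37697792 (GRCm38.p6). The Rarb repeat lies in an exon that GENCODE M21 annotates as untranslated sequence of Rarb, and the Cyp26a1 repeat lies in no annotated exon.
Rarb: gggaagGGTTCACCGAAAGTTCActcgca
Cyp26a1: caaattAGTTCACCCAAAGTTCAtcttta
Both genes had low coverage in both lines, at most 0.7 for Rarb and 0 for Cyp26a1.

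Within each library the retinoic acid receptor genes were also compared as shares of their summed coverage, which no scaling affects. Rarg made up 80.2%, 81.0% and 82.0% of it in KSFM-Ca2+ replicates 1 to 3, against 84.5%, 85.3% and 84.8% in DKSFM replicates 1 to 3. Rara, the widely expressed receptor, took most of the rest, 18.5 ± 1.11% in the KSFM-Ca2+ cells and 14.7 ± 0.388% in the DKSFM cells. The share of Rarb was 0.480 ± 0.195% and 0.379 ± 0.0815%, and its difference of -0.10 percentage points became 0.0078 without KSFM-Ca2+ replicate 3. All DKSFM libraries were above all KSFM-Ca2+ libraries for Rarg and below them for Rara, each with a two-sided exact permutation p of 0.10, the smallest that 3 against 3 libraries allow, and a Benjamini-Hochberg value of 0.16 over the 8 shares tested. For Rarb the exact permutation p was 0.60. Both genes rose in coverage, Rara by a log2 fold change of 0.45 in limma (adjusted p = 0.0013).

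**Figure D2:**
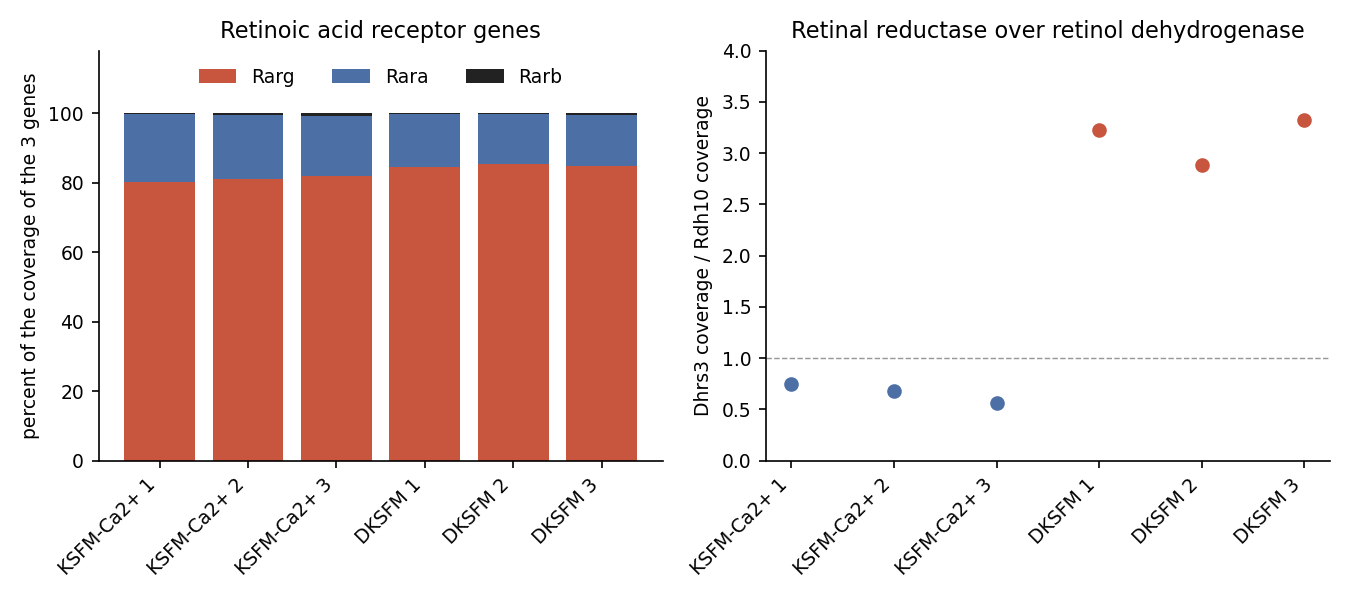
Left, the share of Rarg, Rara and Rarb in the summed coverage of the 3 genes (percent) in each of the 6 libraries. Right, the ratio of Dhrs3 to Rdh10 coverage in each library, with a dashed line at 1. The KSFM-Ca2+ libraries lie at 0.563 to 0.75 and the DKSFM libraries at 2.89 to 3.32. This pair was chosen after the values were seen. Of the 12 tested genes in the list of Rdh10, 8 were called higher and 2 lower.

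Aldh1a1, which oxidises retinal to retinoic acid, was the only ALDH1A gene of the members that passed the filter. It is on the plus strand of chromosome 19 (chr19:20492715-20643465). Its replicates were listed at 3.3, 2.1 and 2.4 for KSFM-Ca2+ and at 1.8, 2.8 and 2.2 for DKSFM, and the lines overlapped. The normalized means were 2.47 ± 0.379 and 2.35 ± 0.444, and limma gave a log2 fold change of -0.08 (-0.48 to 0.32) with an adjusted p of 0.688. The sign turned positive without KSFM-Ca2+ replicate 3 (0.021) and without DKSFM replicate 1 (0.065). Of the 85-base windows of its transcript 1.19% also occur in Aldh1a7, its close relative, which was listed at 0.4 or less in every library.

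Aldh1a2 was listed at 0 in all 6 libraries. Aldh1a3 was at 0 in all KSFM-Ca2+ replicates, with 0.1, 0.2 and 0.1 listed for DKSFM replicates 1 to 3. For Aldh1a3 a rounding step of 0.1 equals about 1.25 reads of 85 bases over its median transcript, so these values rest on very few reads. It did not pass the filter, and with no filter limma called it higher, with a log2 fold change of 1.22 and an adjusted p of 0.00519. Of the summed coverage of Aldh1a1, Aldh1a2 and Aldh1a3, Aldh1a1 made up 100% in each KSFM-Ca2+ library and 94.6 ± 1.17% in the DKSFM cells (exact permutation p = 0.10, adjusted 0.16). The rest was Aldh1a3, so this share rests on the same few reads.

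Crabp2 encodes the protein that carries retinoic acid to its receptors in the nucleus. It is on the plus strand of chromosome 3 (chr3:87948666-87953376). KSFM-Ca2+ replicates were listed at 0, 0.2 and 0.3, DKSFM replicates at 0.8, 1.6 and 2.1. All DKSFM libraries were higher, although relative to their mean they differed among themselves more than those of the other called members. Limma gave a log2 fold change of 2.71 (1.38 to 4.03) with an adjusted p of 0.00249. Crabp2 passed the filter through the DKSFM libraries alone and so had to differ, and this call adds no support for a difference. The call was lost without DKSFM replicate 2 (adjusted p = 0.0152 by limma) and without DKSFM replicate 3 (0.0136), and over all alternatives the adjusted p ranged from 0.00015 to 0.0537. With a pseudocount of 0.5 or 1 in place of 0.1 the log2 fold change was 1.57 or 1.09, below those of Dhrs3 (1.95 and 1.90) and Cyp26b1 (1.82 and 1.73).

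Crabp1, the relative of Crabp2 that holds retinoic acid in the cytoplasm, was listed at 0.2 in KSFM-Ca2+ replicate 1, at 0 in the other KSFM-Ca2+ libraries and at 0.2 in each DKSFM library. It did not pass the filter, and a step of 0.1 equals about 0.944 reads for this gene. Its share of Crabp1 and Crabp2 coverage ran from 0% to 100% in the KSFM-Ca2+ libraries and was 13.3 ± 5.95% in the DKSFM cells (exact permutation p = 1). Fabp5, a fatty acid binding protein that also carries retinoic acid, to PPARD, was far more abundant than either, at 385.6 ± 39.96 in the KSFM-Ca2+ cells and 461.3 ± 24.2 in the DKSFM cells. Its limma adjusted p was 0.011, just short of the threshold, with a log2 fold change of 0.26. At the same threshold it was called higher in 7 of the alternatives, which included other scalings, larger pseudocounts and a replicate block, with limma adjusted p-values from 0.00061 to 0.00979. Crabp2 made up 0.0508 ± 0.0521% of Crabp2 and Fabp5 coverage in the KSFM-Ca2+ cells and 0.338 ± 0.158% in the DKSFM cells (exact permutation p = 0.10, adjusted 0.16).

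**Figure D3:**
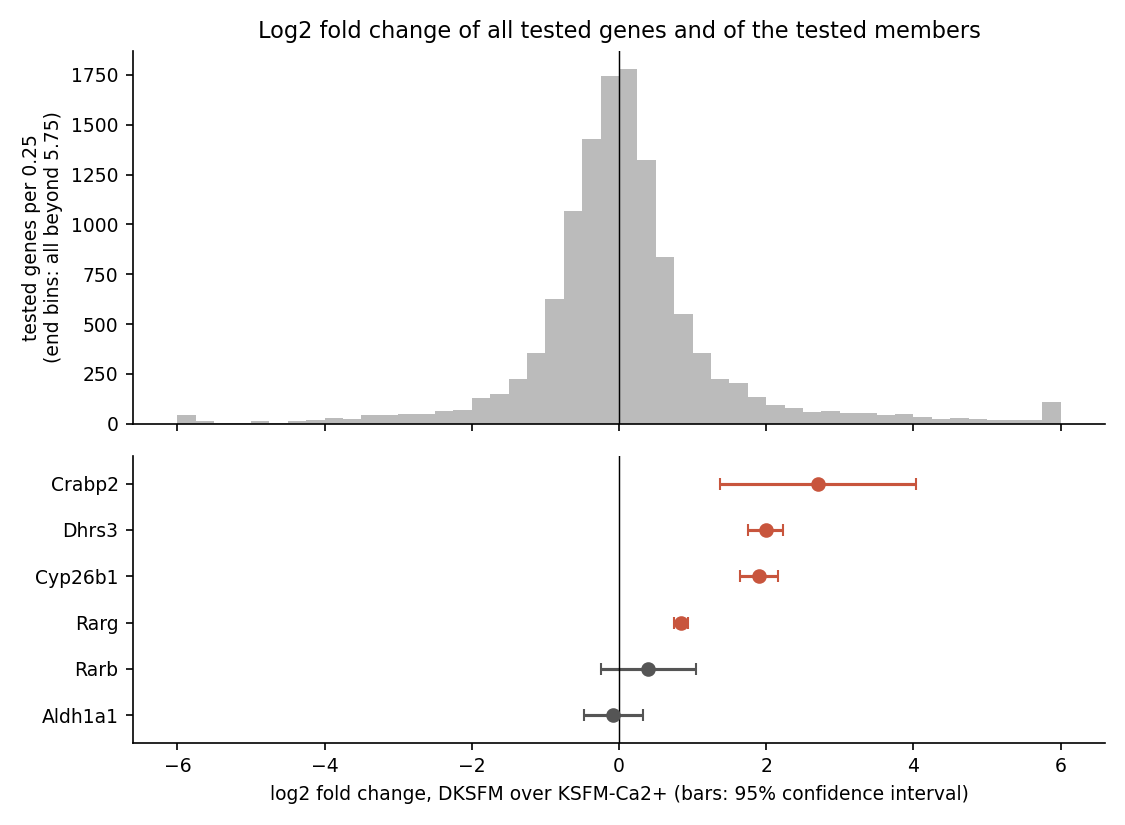
Top, the number of tested genes in each 0.25 of log2 fold change (DKSFM over KSFM-Ca2+), with all larger values in the end bins. Bottom, the log2 fold change of the 6 tested members with its 95% confidence interval; the intervals of Crabp2, Dhrs3, Cyp26b1 and Rarg lie above 0, and those of Rarb and Aldh1a1 cross it.

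The files marked as combined by the authors, a term not explained in the sources used here, were those of KSFM-Ca2+ replicate 3 and of all DKSFM libraries. Over these 4 libraries alone, with the lone KSFM-Ca2+ library assumed to vary like the others, the limma log2 fold change was 2.17 for Dhrs3, 1.82 for Cyp26b1 and 0.93 for Rarg, the largest adjusted p being 2.81e-05. For Crabp2 it was 1.76, with an adjusted p of 0.0171, so the call was lost.

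The position of the genes gave a further description. With each chromosome cut from its start into fixed windows of 20 Mb, the last of them shorter, the window that holds a member need not be centred on it, and Rarg lies in the last of chromosome 15. In these windows the median log2 fold change of the tested genes, relative to all tested genes, was 0.50 for Crabp2 (226 genes), 0.32 for Cyp26b1 (121 genes), 0.13 for Rarg (60 genes) and 0.11 for Dhrs3 (146 genes). For the tested members that were not called it was -0.19 for Aldh1a1 (77 genes) and -0.026 for Rarb (28 genes).

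By distance between centred log2 values over the 6 libraries, the tested genes most like Crabp2, the member with the largest log2 fold change at a pseudocount of 0.1 over all libraries, were Mrgprb2 (1.08), Orm3 (1.08) and Rdh9 (1.14). In the KSFM-Ca2+ cells their normalized means were 0.112, 0.170 and 0.170, near 0 like Crabp2 at 0.184, so these distances depend on the pseudocount. Rdh9 also shares 88.3% of its transcript windows with other genes. Those most like Aldh1a1, the member with the lowest log2 fold change, were Dhrs9 (0.24), Npr1 (0.24) and Klra6 (0.27).

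The other genes of the pathway were taken from lists of 62 genes, of which 38 passed the filter. In limma 25 were called higher and 6 lower, 14 and 1 of these by at least 2-fold, and 5 of the 38 reached the minimum of 0.5 in 1 line only. Their median log2 fold change was 0.66. These lists too were chosen with earlier results of these data known, so their counts cannot show an excess over other genes. Of all tested genes 35.5% were called higher and 37.1% lower, 13.2% and 10.5% by at least 2-fold, with a median of -0.0012, and the counts by list below stand against the same shares.

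Of the 11 genes of retinol uptake, binding and storage, 5 were tested and 3 called higher. Rbp2, a cellular retinol binding protein, rose from 2.4, 1.4 and 0.9 in KSFM-Ca2+ replicates to 21.1, 28.0 and 25.8 in DKSFM replicates, 18.2-fold on normalized means. Lrat, which esterifies retinol for storage, was at 0 in all KSFM-Ca2+ replicates, with 8.6, 10.0 and 7.8 listed for DKSFM replicates 1 to 3. It passed the filter through the DKSFM libraries alone and so had to differ (limma adjusted p = 1.26e-08), as did Sdr16c6, Rdh9 and Krt19 below. Dgat1, an acyltransferase that can also esterify retinol, was the most abundant of the list in the KSFM-Ca2+ cells, at 14.8 ± 1.15, and rose to 21.6 ± 1.06.

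Of 17 retinol dehydrogenases and retinal reductases, 12 were tested, 8 were called higher and 2, Rdh10 and Dhrs4, lower. Rdh12 rose 9.58-fold, from 16.2 ± 2.07 to 155.7 ± 10.6, and Sdr16c5 19.2-fold, from 7.81 ± 1.04 to 149.6 ± 2.52. Sdr16c6, beside Sdr16c5 on chromosome 4, was at 0.1 in each KSFM-Ca2+ replicate, with 20.6, 35.7 and 21.7 listed for DKSFM replicates 1 to 3. Adh7, a retinol-oxidising alcohol dehydrogenase, rose 6.98-fold, and Rdh11, the most abundant of the list, from 201.8 ± 6.50 to 264.8 ± 7.51. Rdh9 went from 0.170 ± 0.0834 to 1.93 ± 0.412, but 88.3% of the 85-base windows of its transcript occur in other Rdh genes, so its values are uncertain.

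Rdh10, which feeds retinal to the ALDH1A enzymes in many embryonic tissues, is set beside Dhrs3, chosen after the values were seen, because their reactions run in opposite directions. Its coverage was 15.4 ± 0.665 in the KSFM-Ca2+ cells and 13.0 ± 0.702 in the DKSFM cells, with a limma log2 fold change of -0.24 and an adjusted p of 0.00746. That call was lost when KSFM-Ca2+ replicate 1 or 3 or any DKSFM library was left out, with a replicate block (adjusted p = 0.0136) and over the combined libraries (0.0252), with limma adjusted p-values of 0.0101 to 0.0319. The ratio of Dhrs3 to Rdh10 was 0.75, 0.682 and 0.563 in KSFM-Ca2+ replicates 1 to 3, against 3.23, 2.89 and 3.32 in DKSFM replicates 1 to 3. Rdh10 and Dhrs4 were the 2 tested genes of their list called lower, while 8 were called higher, among them the retinol-oxidising Sdr16c5 and Adh7. The ratio therefore describes this pair and not the list.

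**Figure D4:**
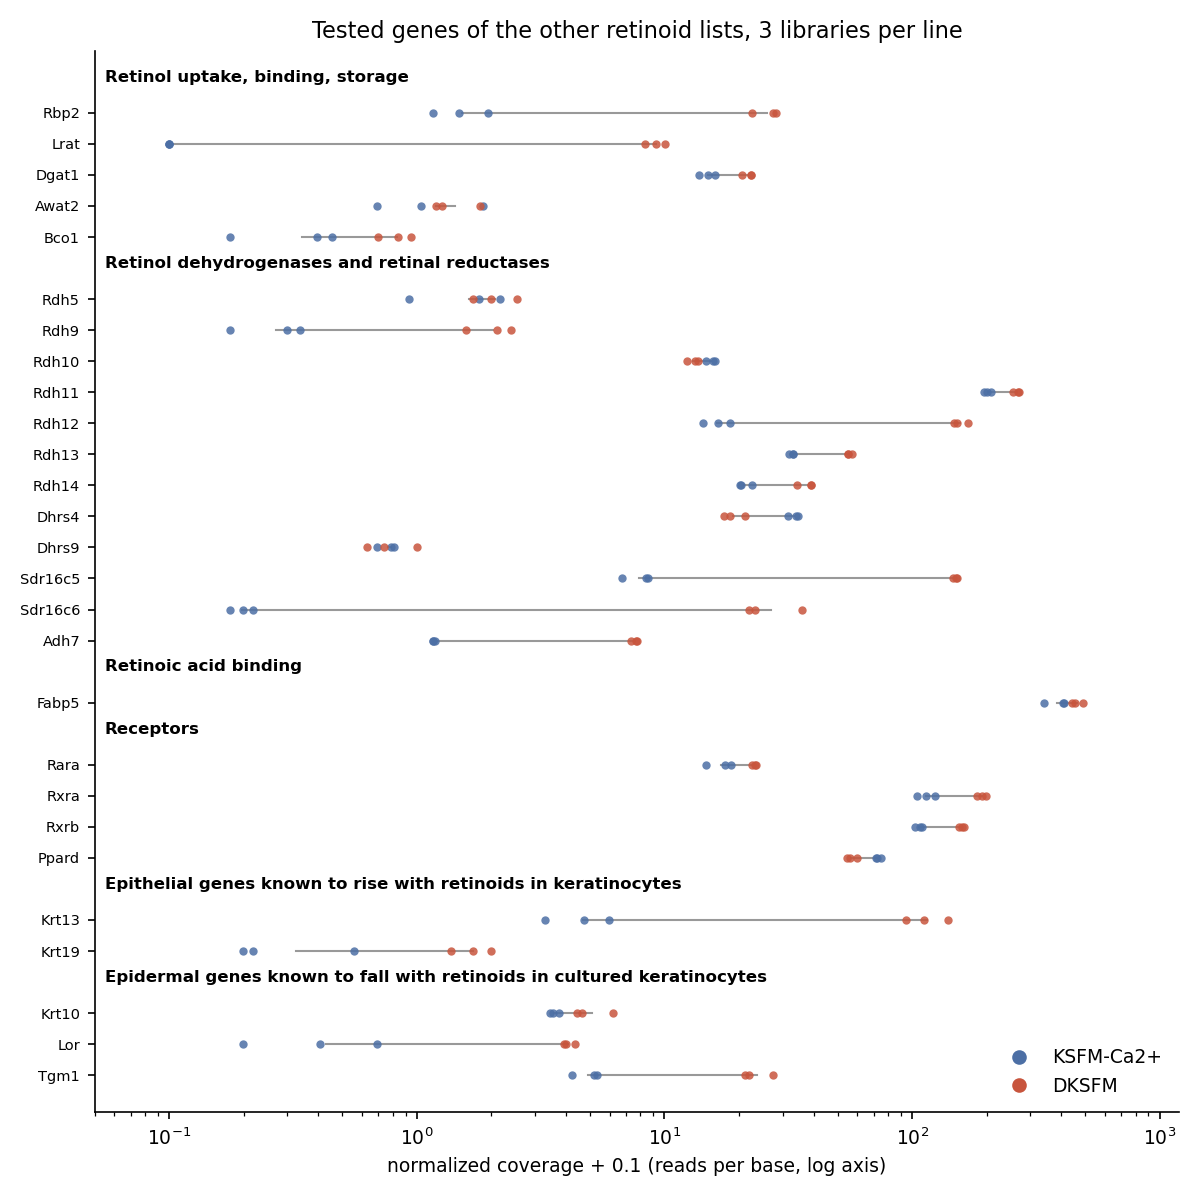
Normalized coverage + 0.1 (reads per base, log axis) of the 27 tested genes of the other retinoid lists, without coregulators and genes known to respond to retinoic acid, with 1 point per library and a line between the means of the lines. Lrat lies at the added 0.1 in the KSFM-Ca2+ cells, and Sdr16c6, Sdr16c5, Rbp2, Rdh12, Krt13 and Lor are among the genes with wide gaps.

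Among the receptors, the RXR partners Rxra and Rxrb were called higher with Rara, Ppard was called lower, and Rxrg was listed at 0 in all libraries. Rxra, the most abundant, went from 113.8 ± 9.57 to 191.2 ± 8.22. Of 8 coregulators, 4 were called higher and 2 lower. Tbl1xr1, part of a corepressor complex, rose 2.09-fold. Hdac3, a deacetylase of corepressor complexes, fell from 111.3 ± 4.94 to 87.4 ± 2.86.

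Genes known to respond to retinoic acid went both ways. Of 8, 3 were tested, 2 were called higher, Tgm2 and Meis1, and 1 lower. Tgm2, tissue transglutaminase, was listed at 2.1, 1.5 and 1.4 in KSFM-Ca2+ replicates and at 81.8, 83.1 and 80.1 in DKSFM replicates, 53.8-fold higher on normalized means. Meis1 rose 2.09-fold, with 12.7% of its transcript windows shared with Gm37818. Rarres2, Hoxb1 and Cdx1 were listed at 0 in all libraries.

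Of 3 genes known to rise with retinoids in keratinocytes, 2 were tested and called higher: Krt13 went from 4.57 ± 1.34 to 114.8 ± 22.6 and Krt19 from 0.225 ± 0.202 to 1.59 ± 0.312. Of 5 known to fall with them, 3 were tested and called higher. Lor, a cornified envelope protein, rose from 0.331 ± 0.247 to 3.99 ± 0.223, and Tgm1, which crosslinks that envelope, from 4.81 ± 0.607 to 23.4 ± 3.42. Krt10 went from 3.49 ± 0.154 to 5.002 ± 0.953, with a limma log2 fold change of 0.49 and an adjusted p of 0.00963, and apart from the test against 2-fold its call was lost in 11 alternatives, with log2 fold changes of 0.31 to 0.56 and limma adjusted p-values from 0.011 to 0.104. Among these were a replicate block (0.0129), scaling by library totals or quantiles, and leaving out any library but DKSFM replicate 3.

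The keratinocyte label was checked against marker genes. All 7 keratinocyte markers were tested, led by Krt14, and their summed normalized coverage was 18988, 19350 and 19066 for KSFM-Ca2+ replicates 1 to 3, against 47796, 44169 and 48249 for DKSFM replicates 1 to 3. That sum is mostly Krt14 and Krt5. Of the 7, 6 were called higher and Cdh1 lower, from 159.5 to 145.7 (limma adjusted p = 0.00343), while Trp63 went from 404.5 to 443.0 and Itga6 from 258.4 to 284.8. Of 7 fibroblast markers 6, among them Col1a1, Col1a2, Col3a1 and Dcn, were listed at 0 in every library, and Pdgfra, the only one above 0, went from 1.11 to 2.22. Of 4 endothelial markers Cdh5 was at 0 in every library, and Pecam1 went from 2.78 to 7.58, with sums over the list of 2.82 to 3.30 and 7.42 to 8.29 in the libraries of the lines. Of 4 leukocyte and Langerhans cell markers, Cd68 went from 11.5 to 17.6 while Cd3e was at 0, and the sums were 10.8 to 12.5 and 13.6 to 20.6. Of 3 Merkel cell markers, Sox2 went from 3.97 to 7.69 while Atoh1 was at 0, and the sums were 3.07 to 4.50 and 7.21 to 7.99. Pdgfra, Pecam1, Cd68 and Sox2 were each called higher. None of 5 melanocyte and 4 sebocyte markers passed the filter, with Dct, Tyr, Mc5r and Awat1 at 0. The part of these markers in the differences of the retinoid genes was not tested.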

How the data were processed

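Per the labels and methods, the authors sequenced directional poly(A) RNA as single reads, aligned them to mm10 with STAR (bcl2fastq is also named in the submitters' processing notes) and deposited, for each gene, a signal: mean read coverage per base. How coverage was computed is not given in the sources used here. Because coverage is not a count, DESeq2, which the authors used, was not used. Libraries were scaled by a trimmed mean of M values without weights (trims of 30% of M and 5% of A values), and limma 3.58.1 in R 4.3.3 with an intensity trend was fitted to all 6 libraries with no covariate. The pseudocount was 0.1, the rounding step. Adjustment followed Benjamini and Hochberg, and shares were tested with exact permutation (scipy 1.17.1, Python 3.11.15). The procedure was tested on simulated data. Read depth per gene is unknown, so intervals for counting error are not given. Positions and exons came from GENCODE M21 and promoter windows, 250 bases before to 50 after a start, from RefSeq GRCm38.p6. The named genes were the 9 members, listed genes called at 2-fold, the most abundant gene of each list and the 3 nearest genes by likeness; further listed genes were named after their values were seen, and 2 listed genes are counted but their values are not reported here. The members and lists were chosen with earlier results of these data known. Alternatives covered scaling, filter, pseudocount, trend, a replicate block, thresholds and libraries left out.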

Additional observations from a re-analysis of the deposited data

How the results depend on the processing

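Under limma treat against a 2-fold change, 1062 genes were called higher and 785 lower, 2 members and 11 other retinoid genes were called higher and 0 of the latter lower, as treat asks for a change beyond 2-fold. There Crabp2 (log2 fold change 2.71, adjusted p = 0.0537) and Rarg (0.84, adjusted p = 1) lost their calls. With the filter applied in every library, 1032 genes and 9 other retinoid genes were called higher at 2-fold, since fewer genes were tested, and Crabp2 was not tested. Over the libraries marked as combined, Crabp2 was at 1.76 (adjusted p = 0.0171) and Rarb at -0.014. Pseudocounts of 0.5 and 1 took Crabp2 from 2.71 to 1.57 and 1.09 with the call kept. With no filter 5 members were called higher, Aldh1a3 being added. Leaving out 1 library gave log2 fold changes of 2.06 to 3.20 for Crabp2, with the call lost at 2.42 and 2.64, and of -0.20 to 0.065 for Aldh1a1, with positive values of 0.021 and 0.065. Of the other retinoid genes 0 or 1 were lower at 2-fold. With 0.1 added to each gene the share of Aldh1a2 differed by 0.258 percentage points. The causes were not tested. Dhrs3 (1.90 to 2.17) and Cyp26b1 (1.73 to 2.01) kept direction and call in all 18 alternatives. Same-numbered replicates did not deviate together (correlations -0.00508, 0.0239 and -0.0061), and the replicate block left the 4 members called but ended the limma calls of Rdh10 (adjusted p = 0.0136) and Krt10 (0.0129). The share of Crabp1 turned from -20.1 to a positive difference without KSFM-Ca2+ replicate 1, and that of Rarb from -0.10 to 0.0078 without KSFM-Ca2+ replicate 3. The 0.1 step limits Crabp1, Crabp2 and Aldh1a3.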
